A study of Mus musculus with 6 samples.

Results

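AP-1 (activator protein 1) is a family of transcription factors that bind DNA in pairs through a basic region and a leucine zipper. The genes described here are 10 members and close relatives of it: Fos, Fosb, Fosl1, Fosl2, Jun, Junb, Jund, Atf3, Jdp2 and Maff. They were chosen by name, as every probe of the array whose only gene symbol is 1 of these 10. The rule found 13 of the 38467 probes on the array: 3 for Fosl2, 2 for Maff and 1 for each of the others. After averaging the probes of a gene, all 10 could be tested among 27046 genes and unnamed probes.

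The RNA came from C3H10T1/2, a mouse line of mesenchymal stem-like cells able to form several connective tissues. It was taken after 1 µM dexamethasone for 90 minutes (3 cultures) and after the solvent DMSO alone, the vehicle (3 cultures), which the series describes as biological replicates. Dexamethasone is a synthetic steroid and a strong agonist of the glucocorticoid receptor, a ligand-activated transcription factor. No genetic change is named for either group, and both were grown in medium with 10% serum, per the labels. Each culture was hybridised on its own two-colour array, the sample in Cy3 and a pool of RNA from the same cell line in Cy5. The labels list myostatin-treated cells among the sources of the pool, which the series description leaves out.

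Every value below is a log2 ratio to that pool, as far as the numbers show. A ratio of this kind gives no level, so genes cannot be ranked by abundance, the presence of a transcript cannot be read from it, and the cell line could not be checked against its markers. A lower value can mean less RNA per cell or fewer cells with that RNA, which these bulk samples cannot tell apart.

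The Fos proteins pair mainly with Jun proteins, while Jun proteins also pair with each other, and the pairs bind a short palindrome known as the TPA response element or its close relative, the cyclic AMP response element. Most of these genes are immediate early genes: serum, growth factors or stress switch them on within minutes through MAP kinases, and their messenger RNAs are short-lived. The activated glucocorticoid receptor is known to interfere with AP-1 at inflammatory and protease genes. It also induces Dusp1, a phosphatase that switches off the kinases that activate Jun.

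Several of these genes are known to be controlled by AP-1 or CREB family proteins through elements near their own start. The windows shown here, from the RefSeq promoter table of build GRCm38.p6, carry such letters within 250 bases before the start, given for the 3 members in which the treatment groups did not overlap (Junb, Jdp2 and Jun) and for Fos, Atf3 and Maff. The capitals mark the matched letters, the sequence runs 5′ to 3′ on the gene's strand.
Junb, chr8:84978822-84978882, minus strand: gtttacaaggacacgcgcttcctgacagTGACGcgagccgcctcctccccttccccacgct
Jdp2, chr12:85599274-85599334, plus strand: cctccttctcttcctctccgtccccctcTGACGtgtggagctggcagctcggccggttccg
Jun, chr4:95052233-95052293, minus strand: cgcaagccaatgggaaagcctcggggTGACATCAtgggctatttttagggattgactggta
Fos, chr12:85473796-85473856, plus strand: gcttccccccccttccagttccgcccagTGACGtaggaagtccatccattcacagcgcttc
Atf3, chr1:191183309-191183369, minus strand: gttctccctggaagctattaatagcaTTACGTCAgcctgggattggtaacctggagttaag
Maff, chr15:79347465-79347525, plus strand: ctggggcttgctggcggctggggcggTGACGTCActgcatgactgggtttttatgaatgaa

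By symbol 9 of the 10 members matched the table, all but Fosl1, with 13 promoters between them: 3 each for Jdp2 and Maff and 1 for each of the others. Motifs were searched on both strands in windows of 300 bases. The cyclic AMP response element TGACGTCA occurred in 1 of the 13 member promoters (Maff) and in 1.79% of all 32851 promoters. Its core TGACG, which the full element contains, occurred in 7 of the 13 member promoters and in 20.8% of all promoters. Those 7 belonged to 6 members (Fos, Fosb, Junb, Atf3, Jdp2 and Maff). The letters TGACATCA stood 45 bases before the start of Jun and also in 1 Maff promoter, against 3.62% of all, and TTACGTCA in that of Atf3 alone among the members, against 0.499% of all. These 2 variants were searched because they had been seen in these promoters. The TPA response element TGACTCA was in 0 of the 13 (5.2% of all) and the palindromic glucocorticoid response element (AGAACA and TGTTCT with 3 bases between) in 0 of the 13 (0.00913% of all). A match is a description of letters and not a binding site, and the absence of one holds for these windows only.

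The arrays differed in missing and low-signal values. Missing values numbered 1695 to 4290 on the dexamethasone arrays and 552 to 932 on the vehicle arrays. The array medians ran from -0.12 to 0.57 with dexamethasone and from -0.12 to 0.16 with vehicle, so the columns were not centred. Ratios of whole numbers from 1 to 10, as very dim spots give, made up 3.79% of the values on dexamethasone 1 and 10.5% and 12.7% on dexamethasone 2 and 3. They made up 1.86% and 1.95% on vehicle 1 and 2 and 7.73% on vehicle 3. By that share, dexamethasone 1, vehicle 1 and vehicle 2 form 1 set of arrays (each under 5%), and dexamethasone 2, dexamethasone 3 and vehicle 3 a second, dimmer set. The differences (dexamethasone minus vehicle) had a median of 0.32 over all genes, and 68.2% of the 27046 differences were above 0. With every array centred at its own median (called centring below), the median was 0.02 and 50.8% were above 0. Each member is therefore given as deposited and after centring.

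The direction of the ratio is not stated in the labels and was not settled otherwise. Rank correlations between arrays cannot give it. The lowest between arrays of the same dye orientation was -0.33, between vehicle 2 and dexamethasone 3. Sample over pool is taken as likely, because 6 of 6 textbook glucocorticoid targets then have higher values with dexamethasone. These are Dusp1, Glul, Fkbp5, Per1, Tsc22d3 and Sgk1. Their group means differ by 1.71 to 4.26 on the log2 scale, and in each gene all dexamethasone arrays lie above all vehicle arrays. For Sgk1 the groups are only just separate, with 0.14 on dexamethasone 1 against 0.03 on vehicle 3. The 4 probes of Tsc22d3 gave differences from 0.05 to 4.49. That these 6 genes are higher is for that reason no finding. With the sign turned, "higher" and "lower" change places in every statement on the members and targets that follows.

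None of the 10 members passed the test between dexamethasone and vehicle. With limma and Benjamini-Hochberg adjustment, 0 of them had an adjusted p under 0.05, and so did 0 of the 27046 genes and unnamed probes (0%). At an unadjusted p under 0.05 there were 2 members, Junb and Jdp2, both higher with dexamethasone, where 5.43% of all genes had such a p, 4.43% higher and 0.995% lower. In 3 members, Jun, Junb and Jdp2, all 3 dexamethasone values lay above all 3 vehicle values, which 10.4% of all genes did. In 0 members did they all lie below, against 6.42% of all genes. The difference was above 0 in 9 of the 10 and below 0 in Fosl1. With the sign turned, 1 would be above and 9 below 0 (31.8% of all genes above), and the 2 and the 3 would be lower. After centring the difference was above 0 in 6 of the 10, and 0 members had an unadjusted p under 0.05, as 3.94% of all genes did. The median over the members was 0.47 as deposited, against 0.32 for all genes, and 0.16 after centring, against 0.02 for all genes. Exact permutation of 3 against 3 arrays cannot give a p below 0.1 for a single gene, so none was used.

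**Figure D1:**
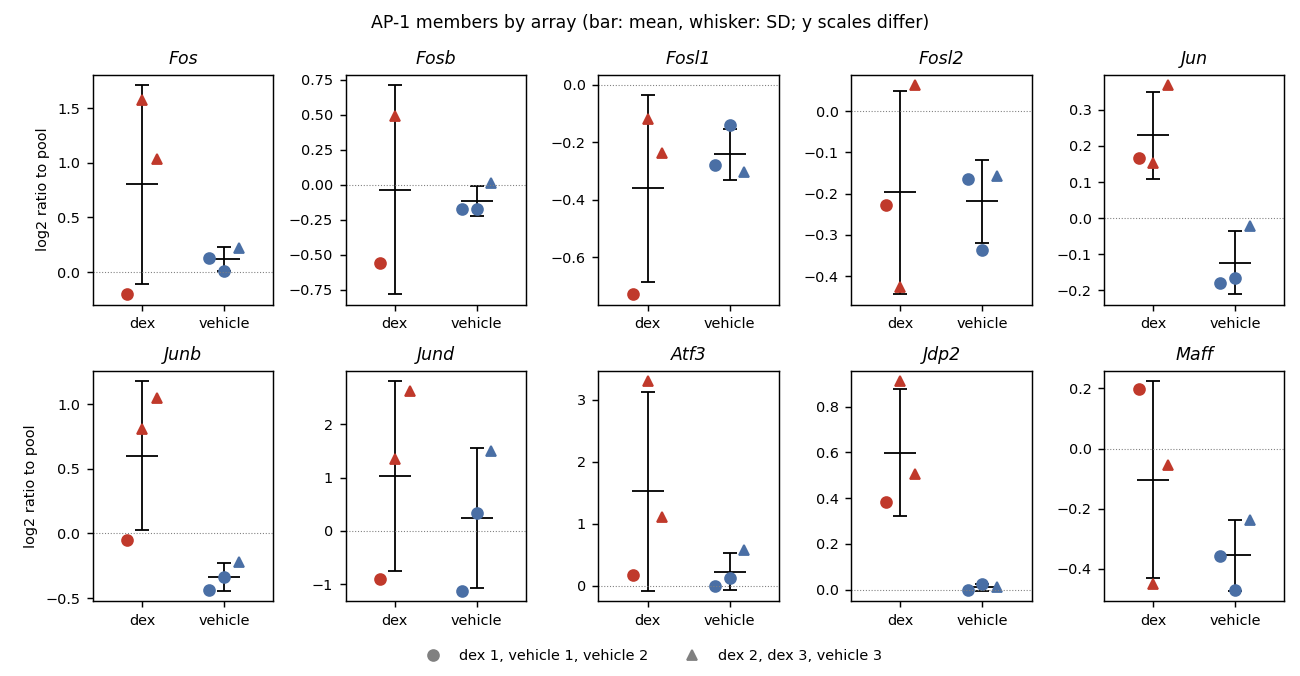
Log2 ratio to the pool of each member on each array, dexamethasone (red) left of vehicle (blue), with the mean and SD of the arrays of a group (3 each, 2 for Fosb with dexamethasone). Circles are dexamethasone 1, vehicle 1 and vehicle 2, triangles the other 3 arrays; the groups are separate in Jun, Junb and Jdp2, and the dexamethasone arrays spread more than the vehicle arrays in all 10 panels.

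Among the Jun proteins, which carry a strong (Jun) or weaker (Junb, Jund) activation domain, Junb differed most clearly. Junb, which can antagonise Jun at some promoters, had log2 ratios of -0.05, 0.81 and 1.04 on dexamethasone arrays 1, 2 and 3, against -0.44, -0.34 and -0.22 on vehicle arrays 1, 2 and 3. The groups did not overlap, but dexamethasone 1 stood closer to the vehicle arrays than to the other dexamethasone arrays. The difference was 0.93 ± 0.34 (SE; 1.91-fold; limma adjusted p = 0.732). It was 0.62 ± 0.28 after centring, where the dexamethasone values again all lay above the vehicle values. That made Junb the only member whose groups were separate and higher both as deposited and after centring. After centring alone, 6.43% of all genes were separate and higher, and the share of genes meeting both conditions was not computed. The difference lay above 0 in all 16 alternative settings, from 0.62 to 1.26, and its adjusted p never fell below 0.0659.

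Jun itself, the founding member of the family, had log2 ratios of 0.17, 0.15 and 0.37 on dexamethasone arrays 1 to 3, against -0.18, -0.17 and -0.02 on vehicle arrays 1 to 3. The groups did not overlap and the values within each were close. The difference of 0.35 ± 0.17 (SE; 1.28-fold; limma adjusted p = 0.732) was nearly that of the median of all genes, only 0.03 above it. After centring it was 0.04 ± 0.30 (SE) and the groups overlapped. The value on dexamethasone 2 matches a ratio of small whole numbers, so the only Jun probe is left out when low-signal spots are removed.

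Jund, which is expressed more constantly than the other Jun genes, had log2 ratios of -0.89, 1.34 and 2.62 on dexamethasone arrays 1 to 3, against -1.12, 0.34 and 1.495 on vehicle arrays 1 to 3. Both groups covered most of the same range, and in each group the highest value came from an array of the dimmer set. The difference was 0.78 ± 1.14 (SE), smaller than its error. After centring it was 0.48 ± 0.97 (SE), and with the array set as a block it was -0.01 ± 0.65 (SE). With the replicate number as a block it was 0.78 ± 0.32 (SE; limma adjusted p = 0.707), larger than its error. In both groups the values rose from array 1 to array 3.

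Of the Fos proteins, Fos and Fosb carry an activation domain that Fosl1 and Fosl2 lack. Fos, the partner of Jun in the classical AP-1 pair, had log2 ratios of -0.20, 1.57 and 1.03 on dexamethasone arrays 1 to 3, against 0.13, 0.01 and 0.22 on vehicle arrays 1 to 3. Dexamethasone 1 was below all vehicle arrays, and dexamethasone 2 and 3 were above all of them. The difference was 0.68 ± 0.49 (SE; 1.61-fold; limma adjusted p = 0.732) as deposited, 0.38 ± 0.36 after centring and -0.09 ± 0.38 after quantile normalization, so its sign depends on the scaling. Without dexamethasone 1 it was 1.19 ± 0.23 (SE), where 29.2% of all genes had an unadjusted p under 0.05, and without dexamethasone 2 it was 0.30 ± 0.43 (SE). The value on vehicle 3 matches a ratio of small whole numbers, so the only Fos probe is left out when low-signal spots are removed.

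Fosb had log2 ratios of -0.56 and 0.49 on dexamethasone arrays 1 and 2 and no value on dexamethasone 3, against -0.18, -0.18 and 0.01 on vehicle arrays 1 to 3. The 2 dexamethasone arrays lay on opposite sides of the vehicle arrays. The fit, which drops the missing array, gave 0.08 ± 0.40 (SE), and -0.17 ± 0.31 after centring.

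Fosl1, the Fra-1 protein gene and itself a known AP-1 target, had log2 ratios of -0.73, -0.12 and -0.24 on dexamethasone arrays 1 to 3, against -0.28, -0.14 and -0.30 on vehicle arrays 1 to 3. Dexamethasone 1 lay below the vehicle range by more than its whole width, dexamethasone 2 slightly above it and dexamethasone 3 inside it. The difference of -0.12 ± 0.23 (SE) was the only one below 0 as deposited. After centring it was -0.43 ± 0.26 (SE), with all dexamethasone values below all vehicle values, as in 3.82% of all genes, and it was 0.06 ± 0.15 without dexamethasone 1.

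Fosl2, the Fra-2 protein gene, averaged over its 3 probes, had log2 ratios of -0.23, -0.43 and 0.06 on dexamethasone arrays 1 to 3, against -0.16, -0.34 and -0.16 on vehicle arrays 1 to 3. The groups overlapped and the difference was 0.02 ± 0.21 (SE) as deposited and -0.29 ± 0.33 after centring, so its sign depends on the scaling. Its probes did not share a direction: the differences were 0.01 ± 0.44, 0.26 ± 0.23 and -0.20 ± 0.23 (SE). On dexamethasone 2 they read -1.13, -0.44 and 0.29, and on dexamethasone 3 they read 0.46, 0.11 and -0.38. Each of these 3 differences was close to its own error or below it.

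**Figure D2:**
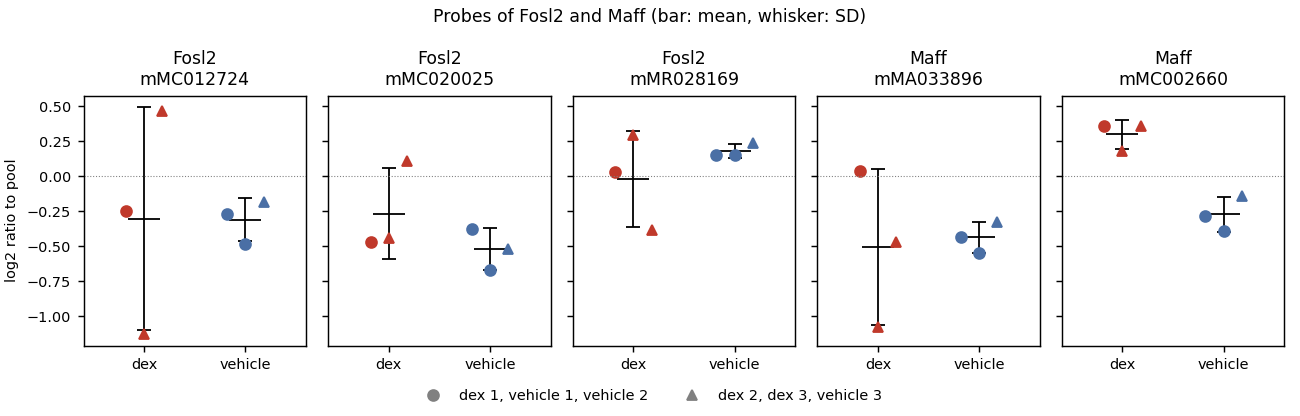
Log2 ratio to the pool for the 3 probes of Fosl2 and the 2 of Maff on each array, dexamethasone (red) left of vehicle (blue), with the mean and SD of 3 arrays each and the array sets as circles and triangles. Maff probe mMC002660 is separate between the groups while mMA033896 overlaps, and the Fosl2 probes order the dexamethasone arrays differently.

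Atf3, a stress-induced member of the ATF group that often acts as a repressor, had the largest difference among the 10 and one of the widest spreads. Its log2 ratios were 0.18, 3.30 and 1.10 on dexamethasone arrays 1 to 3, against -0.002, 0.12 and 0.57 on vehicle arrays 1 to 3. Dexamethasone 1 lay inside the vehicle range, and dexamethasone 2 stood far above the other arrays of its group. The difference was 1.30 ± 0.85 (SE; 2.46-fold; limma adjusted p = 0.732), above 81.4% of all differences. Without dexamethasone 2 it was 0.41 ± 0.38 (SE), and after centring it was 0.99 ± 0.68 (SE).

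Jdp2, a repressor that pairs with Jun proteins and lacks an activation domain, had log2 ratios of 0.38, 0.91 and 0.50 on dexamethasone arrays 1 to 3, against -0.004, 0.02 and 0.01 on vehicle arrays 1 to 3. The groups did not overlap, and the vehicle arrays were nearly equal. The difference was 0.59 ± 0.21 (SE; limma adjusted p = 0.732), the smallest p among the members and the 1163rd smallest of 27046. After centring it was 0.28 ± 0.27 (SE) and the groups overlapped. It lay above 0 in all 16 alternative settings, from 0.28 to 0.70. The named genes whose 6 values followed those of Jdp2 most closely were Slc25a33 (Pearson r = 0.996), Mad2l2, Pole3, Dlx2 and Slc25a32 (r = 0.993). Such likeness was not particular to these genes: 181 of 13025 genes free of low signal had an r above 0.95 with Jdp2. For Fosl1, the 1 member below 0, the closest were Fem1c (r = 0.994), Gnai1, Mcm6, Chrna3 and Fastkd5, and 12 of the 13025 had an r above 0.95.

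Maff, a small Maf protein that has no activation domain and pairs with other leucine zipper proteins, gave probes that disagreed. Probe mMC002660 had log2 ratios of 0.36, 0.18 and 0.36 on dexamethasone arrays 1 to 3, against -0.28, -0.39 and -0.14 on vehicle arrays 1 to 3. Probe mMA033896 had 0.04, -1.08 and -0.47 on dexamethasone arrays 1 to 3, against -0.43, -0.55 and -0.33 on vehicle arrays 1 to 3. The groups were separate on the first probe only, with a difference of 0.57 ± 0.16 (SE; limma adjusted p = 0.69 over all probes), the smallest p among the 13 probes, against -0.07 ± 0.32 (SE) on the second. Averaged, Maff differed by 0.25 ± 0.24 (SE) as deposited and by -0.06 ± 0.41 after centring, so the sign of the gene depends on the scaling and its size on the probe. After centring, the difference on mMC002660 was 0.26.

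**Figure D3:**
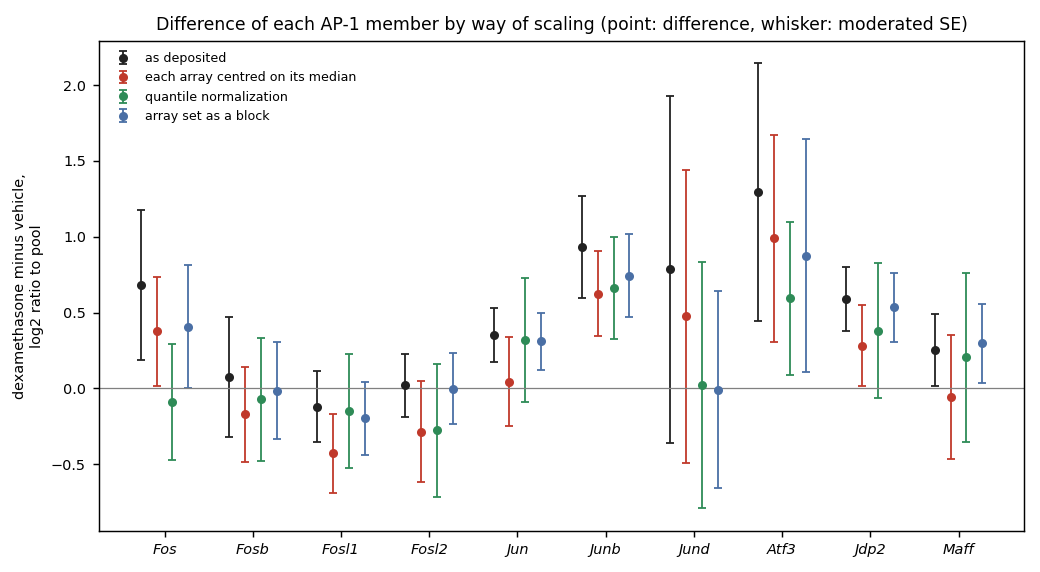
Dexamethasone minus vehicle difference in log2 ratio to the pool for each member (point) with its moderated SE (whisker), as deposited, after centring, after quantile normalization and with the array set as a block. Junb, Atf3, Jdp2 and Jun stay above 0 in all 4 and Fosl1 below 0, while the other 5 members have points on both sides of 0.

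The spread between cultures was larger with dexamethasone than with vehicle in all 10 members, as in 80.7% of all genes. The SD ran from 0.12 (Jun) to 1.78 (Jund) over the dexamethasone arrays and from 0.01 (Jdp2) to 1.31 (Jund) over the vehicle arrays. Within the set of dexamethasone 1, vehicle 1 and vehicle 2, the difference was above 0 in 6 members, and within the other set in 8, with 4 of them (Jun, Junb, Atf3 and Jdp2) above 0 in both. Fos was -0.27 in the first set and 1.08 in the second, and Atf3 0.12 and 1.63. Junb was 0.34 and 1.15, Jdp2 0.37 and 0.70, and Jun 0.34 and 0.28. The medians over all genes were -0.05 and 0.25. After centring, Junb was 0.34 and 0.82, Jdp2 0.38 and 0.36, and Jun 0.35 and -0.05, so 3 members (Junb, Atf3 and Jdp2) remained above 0 in both. The medians over all genes were then -0.04 and -0.08. The share of all genes above 0 in either set or in both was not computed, so these counts are not read as particular to the members. Each of these within-set values rests on 3 arrays and has no replicate error for the group with 1 array. The part of array quality in these differences was not tested.

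**Figure D4:**
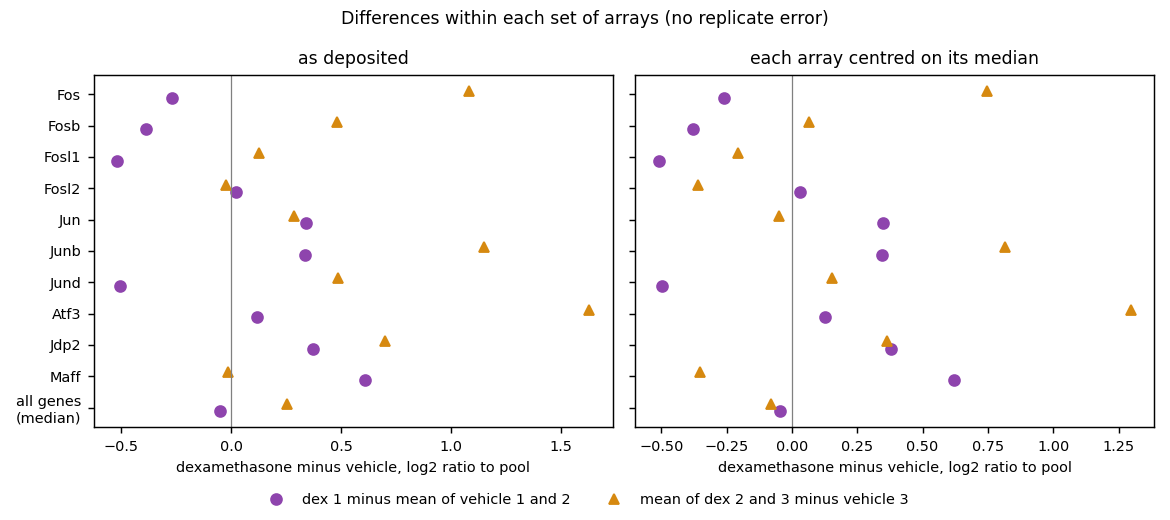
Dexamethasone minus vehicle difference in log2 ratio to the pool within each set of arrays, as deposited (left) and after centring (right), for each member and for the median of all genes tested. Circles are dexamethasone 1 minus the mean of vehicle 1 and 2, triangles the mean of dexamethasone 2 and 3 minus vehicle 3; on either scale Fos, Fosb and Jund lie below 0 in the first set and above it in the second, Fosl2 and Maff the reverse, and Junb, Atf3 and Jdp2 lie above 0 in both.

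A low-signal filter, which drops a probe if any array lacks its value, gives a ratio of whole numbers up to 10 or gives a size above 10, left 7 of the 10 members: Fos, Fosb and Jun dropped out. Of the 17152 genes and unnamed probes left, 29 had a limma adjusted p under 0.05 (0.169%), among them 0 of the 7 members. Junb (limma adjusted p = 0.574) and Jdp2 (limma adjusted p = 0.574) again had an unadjusted p under 0.05, as 7.46% of all genes did. A probe can be lost through 1 array alone, as those of Jun, Fos and Fosb were.

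The transcription factors that act on the Fos and Jun promoters, among them the serum response factor, its ternary complex partners and CREB, held 1 gene with a low p. Of 11 listed, all 11 were measured, 0 were called, 0 were higher and 1 was lower at an unadjusted p under 0.05. Over all genes, 4.43% were higher and 0.995% lower at that p. The lower gene of the list was Elk3, a ternary complex factor. It had log2 ratios of -0.39, -0.33 and -0.54 on dexamethasone arrays 1 to 3, against 0.02, 0.13 and 0.07 on vehicle arrays 1 to 3. Its groups did not overlap, the difference was -0.50 ± 0.17 (SE; limma adjusted p = 0.732), and its 3 probes gave -0.46, -0.56 and -0.46. With any 1 vehicle array left out, 0 genes of the list were lower at that p. Srf itself, named after its value was seen, differed by 0.01 ± 0.19 (SE). The list's median difference was -0.06, against 0.32 for all genes, and -0.37 after centring, against 0.02.

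Of 14 ERK, JNK and p38 pathway kinases listed, 11 were measured and 0 had an unadjusted p under 0.05 (5.43% of all genes). Among these kinases the smallest p belonged to Mapk7 (ERK5), with a difference of 0.51 ± 0.27 (SE). Of 8 genes that degrade or assist Jun and Fos proteins, 0 had an unadjusted p under 0.05. The smallest p of these belonged to the ubiquitin ligase gene Itch (0.93 ± 0.47, SE). Its groups overlapped, and its 5 probes disagreed in size, from -0.03 to 2.11.

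Of 16 other leucine zipper partners listed, 14 were measured, 0 were called, 1 was higher and 0 were lower at an unadjusted p under 0.05. Over all genes, 4.43% were higher and 0.995% lower at that p. The higher gene of the list was Mafg, a small Maf protein like Maff. It had log2 ratios of 0.29, 0.49 and 0.13 on dexamethasone arrays 1 to 3, against -0.52, -0.37 and -0.45 on vehicle arrays 1 to 3. The groups were well apart, and both of its probes lay above 0, at 0.82 and 0.67. The difference was 0.75 ± 0.19 (SE; 1.68-fold; limma adjusted p = 0.628), a smaller p than that of any of the 10 members. After centring it was 0.44, and 0 genes of the list had an unadjusted p under 0.05. Without dexamethasone 1, 6 of the 13 then tested were higher at that p, as were 25.1% of all genes. The list's median of 0.28 was close to the 0.32 of all genes.

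Textbook targets of AP-1, among them proteases, cytokines and growth factors, lay on both sides of 0. Of 25 listed, 21 were measured and 0 were called. At an unadjusted p under 0.05 there were 2 higher and 3 lower (with the sign turned, 3 and 2), against 4.43% and 0.995% of all genes. The list's median difference was -0.34, against 0.32 for all genes, and -0.54 after centring, against 0.02. It was below 0 and below that of all genes in every setting, but nearer 0 without dexamethasone 1 (-0.15), without vehicle 3 (-0.19), with values beyond 10 in size left out (-0.15), after the low-signal filter (-0.12) and with array weights (-0.06). Several of these genes, such as Ccl2, Ptgs2 and Il6, are also targets of NF-kappa B, so the list does not stand for AP-1 alone.

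The lower genes were Ccl2, Ptgs2 and Plau. Ccl2, a chemokine that attracts monocytes, had log2 ratios of -1.71, -1.36 and -1.43 on dexamethasone arrays 1 to 3, against 0.20, 0.24 and 0.47 on vehicle arrays 1 to 3. Its groups were far apart, the difference was -1.80 ± 0.20 (SE; limma adjusted p = 0.188), and it passed after the low-signal filter (limma adjusted p = 0.0487) but not after the filter with centring (-2.11; limma adjusted p = 0.168). Ptgs2, the inducible cyclooxygenase, had -1.39, -1.52 and -1.38 on dexamethasone arrays 1 to 3, against -0.26, 0.02 and -0.25 on vehicle arrays 1 to 3. Both of its probes were lower (-1.22 and -1.31), and the second is left out by the low-signal filter. The difference of the gene was -1.27 ± 0.18 (SE; limma adjusted p = 0.273). Plau, the urokinase plasminogen activator and a classical AP-1 target, had -0.28, -0.95 and -0.85 on dexamethasone arrays 1 to 3, against 0.16, -0.03 and -0.004 on vehicle arrays 1 to 3, a difference of -0.74 ± 0.25 (SE; limma adjusted p = 0.732).

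The collagenase gene Mmp13, another classical AP-1 target, went the other way. It had log2 ratios of 0.46, 1.61 and 1.69 on dexamethasone arrays 1 to 3, against -0.38, -0.21 and 0.44 on vehicle arrays 1 to 3. The groups were only just separate, dexamethasone 1 lying next to vehicle 3, and the difference was 1.30 ± 0.44 (SE; limma adjusted p = 0.732). Its probes gave 1.73 and 0.88, and the second is left out by the low-signal filter. Fst, which encodes the activin antagonist follistatin, was the other higher gene (1.02 ± 0.37, SE; limma adjusted p = 0.732), outside the naming rule and named after its value was seen. Neither kept an unadjusted p under 0.05 when vehicle 1, vehicle 2 or dexamethasone 3 was left out, where the count of higher targets was 0. Il6, the interleukin 6 gene, had the lowest difference of the list, -2.51 ± 2.10 (SE), which came from a single value of -7.62 on dexamethasone 2; it was named after its value was seen.

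**Figure D5:**
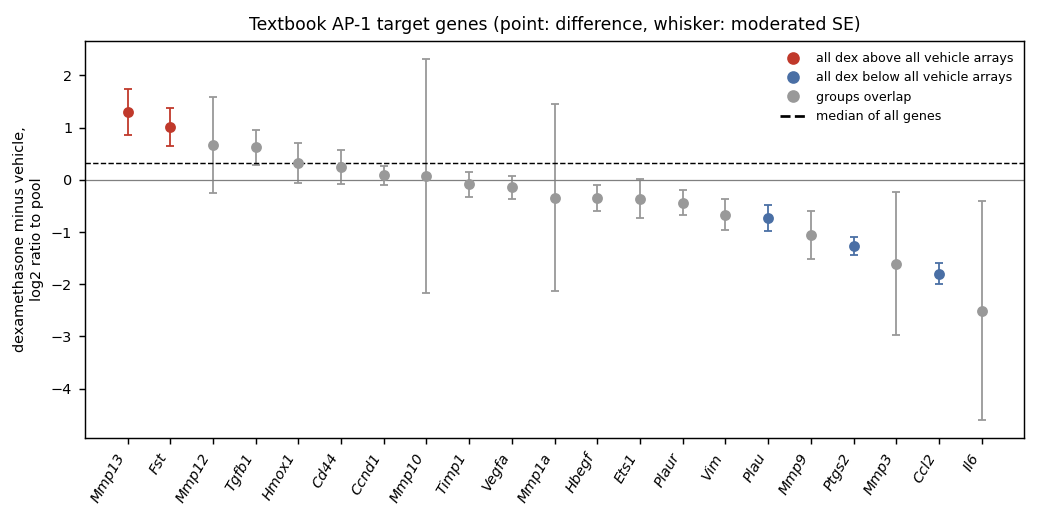
Dexamethasone minus vehicle difference in log2 ratio to the pool (point) with its moderated SE (whisker) for the 21 measured AP-1 target genes, in order of size. Red points have all dexamethasone arrays above all vehicle arrays (Mmp13 and Fst), blue points all below (Plau, Ptgs2 and Ccl2), and the dashed line is the median of all genes, 0.32.

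Markers of other cell types gave no call either. Of 13 blood, endothelial and epithelial markers, all 13 were measured and 0 had an unadjusted p under 0.05 (5.43% of all genes). The median difference was 1.08, against 0.32 for all genes. It ran from 0.35 without dexamethasone 2 to 2.01 without dexamethasone 1, against 0.15 and 0.57 for all genes. Without dexamethasone 1, 4 of 10 were higher at that p, as were 25.1% of all genes. The low-signal filter kept 5 of the 13, with a median of 1.44, against 0.17 for all genes after it. Of 10 mesenchymal markers, 0 had an unadjusted p under 0.05 and the median was -0.14. The part of any such cells in the differences of the members was not tested.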

How the data were processed

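The submitters' processing notes name limma without a version; which background, normalization or spot-filter steps the authors ran is not stated there. The deposited values were read as log2 ratios of the array's channels, because they carry signs and many match log2 quotients of small integers. On 4 arrays a few deposited values exceed 100 in size, and those values were read as a score rather than a log2 ratio. They numbered 2, 27 and 9 on dexamethasone 1, 2 and 3 and 15 on vehicle 3. These score values are as deposited by the authors, whose processing notes name limma but not the steps. They entered the main fit unchanged, together with the log2 ratios. The other values of those columns were read as log2 ratios, which is less sure for the largest of them. Values beyond 10 in size, those above 100 included, numbered 62, 181 and 168 on dexamethasone 1, 2 and 3. On vehicle 1, 2 and 3 they numbered 1, 29 and 89. No scanner intensities were used here. The number of arrays limits the precision.

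Probes were named through the supplied platform annotation: of 38467 probes, 29456 had 1 symbol, 760 several, and 8251 were unlisted here. Array probes have no positions here. Probes sharing a symbol were averaged, and each group had to have 2 or more values. The groups came from the sample titles. limma 3.58.1 in R 4.3.3 (lmFit, eBayes, two-sided, Benjamini-Hochberg over all 27046 genes and unnamed probes, threshold 0.05) compared dexamethasone with vehicle, with no block and no added normalization. SE is moderated, SD is taken over a group's arrays, and fold is 2 to the power of the difference in deposited log2 values. The code was tested on simulated data with known changes.

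The members and all gene lists were chosen with earlier results of these data known. The text names all 10 members, up to 4 genes of each other list with an unadjusted p under 0.05, by smallest p (otherwise the one with the smallest p), the 6 glucocorticoid targets, and the 5 genes most like the members with the smallest p in each direction. Fst, Srf and Il6 fall outside this rule. Alternatives were a replicate block, the array set as a block, median centring, quantile normalization, the low-signal filter, leaving out values beyond 10, array weights, genes on all arrays, single probes, leaving out each array and, added after seeing the data, the filter with centring.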

Additional observations from a re-analysis of the deposited data

How the results depend on the processing

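No setting called any of the 10 members. Over all genes and unnamed probes limma called 29 after the low-signal filter, 5 among those on all arrays and 0 in every other setting, leaving out any 1 array included. The number of members at an unadjusted p under 0.05, 2 as reported, was 0 after median centring, after quantile normalization, and with the array set or the replicate number as a block, and 1 after the filter with centring; such a p was found for 4.09% of all genes after quantile normalization, 5.61% with the array set block and 4.91% with the replicate block. Leaving out 1 array gave 0 to 3: 0 without vehicle replicate 1, 2 or 3, 1 without dexamethasone replicate 2 (Jdp2) or 3 (Jdp2), and 3 without dexamethasone replicate 1 (Fos, Junb and Jdp2), where both dexamethasone arrays left are of the dimmer set. The share of all genes with such a p ran from 2.63% without vehicle replicate 2 to 29.2% without dexamethasone replicate 1. Deviations of same-numbered arrays correlated at 0.30, -0.10 and 0.24. Without such values for unlike-numbered arrays, these cannot show whether the replicate numbers pair the arrays.

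Members that changed sign were Fos (-0.090 after quantile normalization), Fosb (-0.17 after centring, -0.071 after quantile normalization, -0.014 with the array set block), Jund (-0.0085 with the array set block, and from -0.016 without dexamethasone replicate 3 to 1.74 without dexamethasone replicate 1), Maff (-0.056 after centring, with or without the filter) and Fosl1 (0.065 without dexamethasone replicate 1, the highest value without 1 array, the lowest being -0.24). Fosl2 was -0.29 after centring, with or without the filter, -0.28 after quantile normalization, -0.0017 with the array set block, -0.00043 with array weights, -0.037 without vehicle replicate 2 and from -0.11 to 0.14 over the fits without 1 array. Junb, Jun, Atf3 and Jdp2 kept their direction from 0 in every setting that could be run for them. Jun nonetheless fell below the median of all genes in some settings. It lay 0.14 below it with array weights, 0.19 below without dexamethasone replicate 1 and 0.075 below without vehicle replicate 3. Junb, Atf3 and Jdp2 stayed above that median in every setting. Fosb had too few values to be fitted without dexamethasone replicate 1 or 2, on all arrays or after the filter, and Fos and Jun had none after the filter. The cause of these changes was not tested. Lower AP-1 targets at an unadjusted p under 0.05 numbered 2 to 6 and higher ones 0 to 3 over the settings. Of all genes, 0.373% to 4.07% were lower and 2.09% to 25.1% higher at that p over the same settings.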
